A study of Gallus gallus and Dromaius novaehollandiae with 40 samples.

Results

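FGF10 is a secreted fibroblast growth factor, and its messenger RNA was followed here through the mesoderm from which the wing of the chick and of the emu arises. The gene was taken by its symbol, 1 of 12338 genes in the count table of each species, and it was read in each of 17 early RNA-seq libraries. Chick (Gallus gallus) and emu (Dromaius novaehollandiae), a flightless bird with a small and late wing, were sampled at the level of the forelimb in 3 tissues. The undivided lateral plate mesoderm gave 3 chick libraries (lateral plate 30, 31 and 32, stage HH10) and 3 emu libraries (lateral plate 1, 8 and 23). The somatopleure, the outer layer that will bear the limb, gave 3 chick libraries (15, 60 and 63, stage HH13) and 3 emu libraries (5, 13 and 53). The splanchnopleure, the inner layer that faces the gut, gave 3 chick libraries (50, 61 and 64, stage HH13) and 2 emu libraries (6 and one named pool, stage HH13). HH stages are the Hamburger-Hamilton stages of chick development. In the emu 2 stage labels cross the tissues: lateral plate 1 is labelled HH13 where lateral plate 8 and 23 are HH10, and somatopleure 13 is labelled HH10 where somatopleure 5 and 53 are HH13. Where a chick layer is set against the lateral plate, tissue and stage cannot be told apart, and the emu comparisons mix the stages. No treatment, strain or genotype is given. The labels do not say which libraries came from separate embryos, so p-values measure the spread between these libraries, which may in part be technical.

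In the forelimb field of chick and mouse, Fgf10 is switched on in the somatic mesoderm by the T-box factor TBX5, with WNT signals acting alongside. The secreted protein binds the epithelial isoform of FGFR2 in the overlying ectoderm, where FGF8 is then induced and signals back to the mesoderm. Mice without Fgf10 form neither limbs nor lungs, and the gene is also used in foregut mesenchyme and in the second heart field. The series title names attenuated FGF signalling as the setting of the emu's delayed forelimb, so the level of FGF10 bears directly on the question of the study.

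Libraries held 5061393 to 8348865 assigned reads in the chick and 7350786 to 8601471 in the emu. FGF10 received 813 counts over the 9 chick libraries and 118 over the 8 emu libraries. Levels are given as CPM, the share of a library's counts on library sizes scaled by the TMM method, with the mean ± SD over libraries. In these bulk tissues, fewer cells that express a gene and less RNA per cell cannot be told apart. The chick tissues bore out their labels in TBX5, which stood at 125 to 142 CPM in the somatopleure and at 18.5 CPM or less in the splanchnopleure. TCF21, a transcription factor of visceral mesoderm, stood at 65.1 to 91.8 CPM in the chick splanchnopleure and at 3.87 CPM or less in the somatopleure. The emu somatopleure was less distinct, since its TBX5 ran from 6.96 to 76.9 CPM beside 1.93 and 25.2 CPM in the splanchnopleure, so that these groups overlapped.

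In the chick, FGF10 was highest in the somatopleure, intermediate in the undivided lateral plate and lowest in the splanchnopleure. The somatopleure libraries 15, 60 and 63 held 166, 188 and 147 FGF10 counts, or 20.7, 23.9 and 18.1 CPM. The lateral plate libraries 30, 31 and 32 held 143, 48 and 45 counts, or 17.3, 7.12 and 9.01 CPM. The splanchnopleure libraries 50, 61 and 64 held 17, 31 and 28 counts, or 2.55, 4.75 and 3.31 CPM. No library of one chick tissue crossed into the range of another, although lateral plate 30 came within 1 CPM of the lowest somatopleure library. The 95% Poisson interval of its count, 121 to 168, overlapped that of somatopleure 63, 124 to 173, and these intervals cover counting error only.

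The chick somatopleure mean was 20.9 ± 2.93 CPM against 3.54 ± 1.11 CPM in the splanchnopleure (n = 3 each). This was a 5.91-fold difference with a 95% interval of 3.44 to 10.2 (log2 fold change 2.56, SE 0.36, adjusted p = 6.40e-04, edgeR quasi-likelihood test with Benjamini-Hochberg adjustment over 10071 genes). In that comparison 7.34% of the genes tested rose, and 0.357% had a larger log2 fold change than FGF10. The splanchnopleure was in turn 3.18-fold below the lateral plate (interval 1.84 to 5.50, log2 fold change -1.67, SE 0.36, adjusted p = 0.0110), beside 16.9% of genes called and 7.78% that fell. Both calls held with each of the 9 chick libraries left out.

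The step from lateral plate to somatopleure was smaller and did not pass the threshold of 0.05. The chick somatopleure stood 1.86-fold above the lateral plate mean of 11.1 ± 5.42 CPM (interval 1.13 to 3.04, log2 fold change 0.89, SE 0.32, edgeR adjusted p = 0.113), where 3.52% of genes rose. Lateral plate 30 decided this: without it the difference was 1.39 on the log2 scale, with an adjusted p of 0.0226, and without the other libraries in turn it lay between 0.65 and 0.99.

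**Figure D1:**
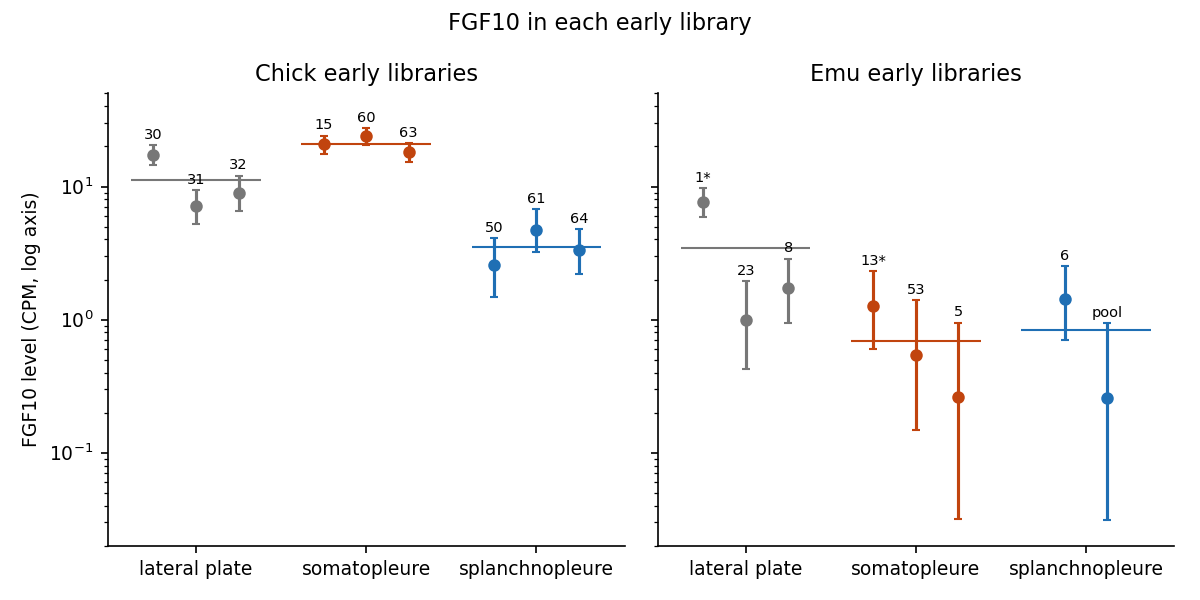
FGF10 level in CPM (log axis) in each early library, by tissue, with chick on the left and emu on the right; points are libraries labelled by their number, error bars are 95% Poisson intervals of the count, horizontal lines are tissue means, and asterisks mark the 2 emu libraries whose stage label departs from the rest of their tissue. The chick somatopleure libraries lie at 18.1 to 23.9 CPM and the emu somatopleure libraries at 0.263 to 1.26 CPM.

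In the emu FGF10 was at 1.71 CPM or less in 7 of 8 libraries. Lateral plate 1 held 67 counts, lateral plate 23 held 8 and lateral plate 8 held 14, which gave 7.65, 0.985 and 1.71 CPM. Somatopleure 13, 53 and 5 held 10, 4 and 2 counts, or 1.26, 0.546 and 0.263 CPM. Splanchnopleure 6 held 11 counts and the pool 2 counts, or 1.42 and 0.259 CPM. Lateral plate 1, labelled HH13 where lateral plate 8 and 23 are HH10, therefore stood alone. The Poisson interval of its count ran from 51.9 to 85.1, above the intervals of lateral plate 8 (7.65 to 23.5) and 23 (3.45 to 15.8). These intervals cover counting error only. The somatopleure and splanchnopleure overlapped fully, and the interval of the lowest emu libraries reached 7.22 counts. A level seen as 2 counts in a library of this depth is close to the limit of 3 counts that a library with none would allow.

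No emu comparison of FGF10 passed the threshold. The somatopleure mean was 0.688 ± 0.511 CPM (n = 3) against 3.45 ± 3.66 CPM in the lateral plate (n = 3), a log2 difference of -2.30 (SE 0.94, interval -4.43 to -0.16, edgeR adjusted p = 0.444). Leaving out lateral plate 1 shrank it to -0.95 (adjusted p = 0.911), and leaving out somatopleure 13 widened it to -3.06. In this comparison 0 of 10640 genes passed in edgeR, while 1107 had an unadjusted p under 0.05 and 140 passed in DESeq2. The splanchnopleure mean was 0.838 ± 0.820 CPM (n = 2), a log2 difference from the lateral plate of -2.03 (SE 1.07, adjusted p = 0.205), beside 20.6% of genes called and 9.21% that fell. It ranged from -3.66 without splanchnopleure 6 to -0.68 without lateral plate 1.

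Between the emu somatopleure and splanchnopleure, the layers that differed most in the chick, the FGF10 difference was -0.27 on the log2 scale (SE 1.15, edgeR adjusted p = 0.900). Its interval ran from -2.87 to 2.33. The sign turned to 0.11 without somatopleure 5 and to 1.37 without splanchnopleure 6, so no direction can be given. The spread of FGF10 beyond counting was larger in the emu, with a biological coefficient of variation of 0.710 against 0.277 in the chick. Over the genes tested the common value was 0.221 in the emu and 0.168 in the chick.

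The difference between the species in the tissue response was tested directly, in 1 fit over the 17 libraries and the 9736 genes that passed the count filter in both. Against the lateral plate this response joins tissue and stage, from HH10 to HH13 in the chick and over mixed stages in the emu. From lateral plate to somatopleure, the chick log2 fold change exceeded that of the emu by 3.19 (SE 0.95, interval 1.17 to 5.21). The edgeR adjusted p was 0.0899 and the unadjusted p 0.00417, beside 2.96% of genes called and 0.904% in that direction, and 0.298% of genes had a larger value. DESeq2 gave 3.25 with an adjusted p of 0.0171. Without emu lateral plate 23 the edgeR value was 3.63 with an adjusted p of 0.0441, and without emu lateral plate 1 it was 1.83 with an adjusted p of 0.318. The sign was positive with each of the 17 libraries left out. Whether the difference passed depended on the tool and, in edgeR, on emu lateral plate 23 alone.

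For somatopleure against splanchnopleure the chick exceeded the emu by 2.81 on the log2 scale (SE 1.18, interval 0.31 to 5.32, edgeR adjusted p = 0.182), beside 5.46% of genes called and 2.36% in that direction. Splanchnopleure 6 moved it most, to 1.18 (adjusted p = 0.841). For splanchnopleure against lateral plate the difference was 0.38 (SE 1.02, adjusted p = 0.856), beside 9.57% of genes called and 4.69% in that direction. That last value changed sign, to -0.98, without emu lateral plate 1 and to -0.37 without the emu pool. These comparisons share the same libraries and are not independent of each other.

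**Figure D2:**
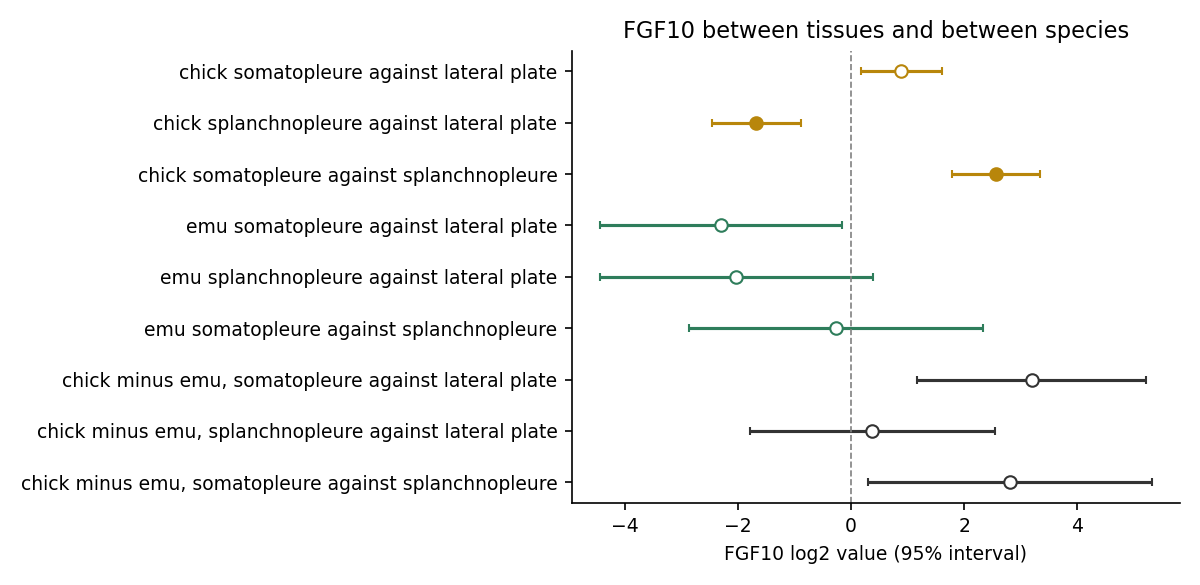
FGF10 log2 fold changes between tissues in chick (ochre) and emu (green), and the difference of those fold changes between species (black), with 95% intervals on the horizontal axis; filled points have an adjusted p under 0.05. The 2 chick comparisons with the splanchnopleure are filled, at 2.56 and -1.67.

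**Figure D3:**
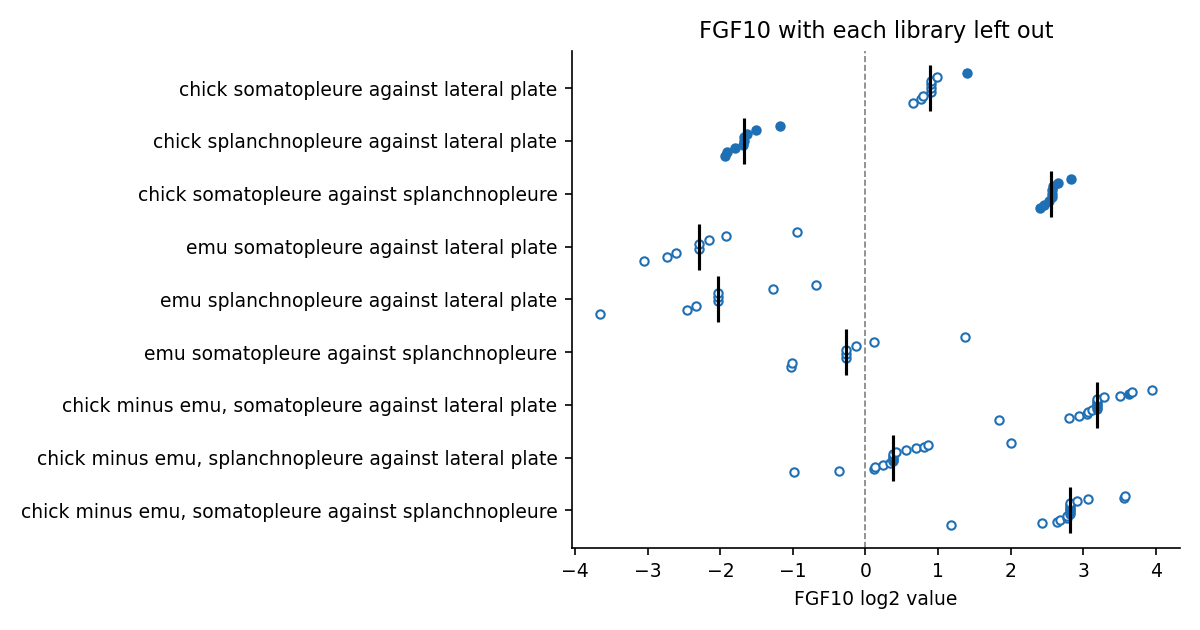
The same 9 FGF10 values on the log2 axis with each library left out in turn; black bars are the values with every library, circles the values without 1 library, filled where the adjusted p is under 0.05. The chick somatopleure against splanchnopleure values stay between 2.40 and 2.83, while the emu splanchnopleure against lateral plate values spread from -3.66 to -0.68.

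The mean FGF10 level was 3.23 times higher in the chick than in the emu in the lateral plate, 30.4 times in the somatopleure and 4.22 times in the splanchnopleure. Of the 9736 shared genes, 7.62%, 0.195% and 6.96% had a larger chick to emu ratio in these tissues, with 0.5 CPM added to both means. The ratios moved with single emu libraries: to 8.26 without lateral plate 1, to 51.7 without somatopleure 13, and to 13.7 without splanchnopleure 6 or 2.49 without the pool. These ratios were given no test, because a level set across the species also carries the length and annotation of the gene in each genome. The chick somatopleure libraries each held more FGF10 counts than any emu library, although the emu somatopleure libraries were sequenced to a similar depth.

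TBX5, the T-box factor that activates Fgf10 in the mouse and chick forelimb field, was set beside FGF10 in each library. In the chick somatopleure both were high, with TBX5 at 142, 125 and 130 CPM in libraries 15, 60 and 63. In the emu the library with the most TBX5, somatopleure 5 at 76.9 CPM, held 2 FGF10 counts. The splanchnopleure pool came next at 25.2 CPM of TBX5, and it too held 2 FGF10 counts. The chick splanchnopleure did not pair high levels of both genes either: its TBX5 stood above the lateral plate by 2.56 (SE 0.76, edgeR adjusted p = 0.0407), where FGF10 fell by 1.67. That TBX5 call was lost without any of the 3 lateral plate libraries, somatopleure 60, or splanchnopleure 50 or 64, at adjusted p from 0.0550 to 0.155.

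Outside the somatopleure the libraries of each tissue lined up in the opposite order for the 2 genes. In the chick lateral plate, library 30 had the most FGF10 and the least TBX5 (0.484 CPM), and library 31 had the least FGF10 and the most TBX5 (2.97 CPM). In the chick splanchnopleure, library 61 had the most FGF10 at 1.22 CPM of TBX5, and library 50 the least at 18.5 CPM. In the emu lateral plate, library 1 had the most FGF10 at 0.114 CPM of TBX5, and library 23 the least at 7.76 CPM. Each of the 10 pairs of libraries within these tissues, the emu splanchnopleure included, had the opposite order, and 4 of 6 pairs did within the somatopleures. Several of these orders lay within counting error. Chick lateral plate 31 and 32 held 48 and 45 FGF10 counts, and chick splanchnopleure 61 and 64 held 31 and 28. Emu lateral plate 23 and 8 held 8 and 14. The Poisson intervals overlapped within each of these pairs. Pairs of a tissue also share libraries, so they are not independent. The pattern was noticed in the values and was given no test.

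**Figure D4:**
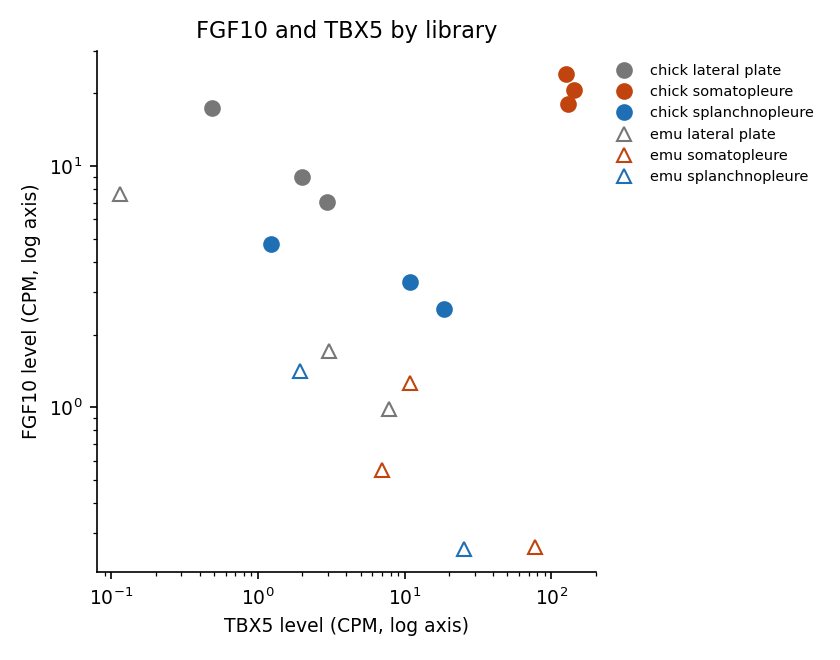
FGF10 level against TBX5 level by library, both in CPM on log axes; filled circles are chick, open triangles emu, and colours the tissues. The chick somatopleure lies alone at the upper right, above 125 CPM of TBX5 and 18 CPM of FGF10, and the emu libraries with the most TBX5 lie at the bottom.

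The lateral plate library richest in FGF10 in each species also had the most SPRY2 and the least FGFR3 of its tissue, while FGF8 set apart the chick library alone. These orders were noticed in the values and were given no test. The share of all genes that take the same order was not counted. FGF8, the ridge ligand that FGF10 induces in limb ectoderm and that is also made in the posterior of the early embryo, was at 11.9 CPM in chick lateral plate 30 and at 1.48 and 1.40 CPM in 31 and 32. In the emu it was at 1.49 CPM in lateral plate 1, 1.48 CPM in 23 and 0.490 CPM in 8. SPRY2, a feedback inhibitor of FGF signalling, was at 40.2 CPM in chick lateral plate 30 beside 16.2 and 20.8 CPM, and at 37.6 CPM in emu lateral plate 1 beside 18.1 and 26.8 CPM in 23 and 8. FGFR3, a receptor, went the other way, at 86.4 CPM in chick 30 beside 213 and 154 CPM, and at 20.1 CPM in emu 1 beside 111 and 72.9 CPM. Emu lateral plate 1, labelled HH13 where 23 and 8 are HH10, was extreme for other FGF targets too. IL17RD was highest there at 156 CPM beside 49.4 and 72.7 CPM, and FLRT3 lowest at 58.2 CPM beside 90.9 and 72.4 CPM. The 12 measured FGF and ERK targets summed to 1116 CPM in emu lateral plate 1 beside 760 and 889 CPM in 23 and 8. In the chick they summed to 809 CPM in lateral plate 30 beside 651 and 695 CPM in 31 and 32. In the emu, stage and this pattern cannot be told apart. The 10 measured somite and presomitic markers summed to 434 CPM in chick lateral plate 30 beside 80.5 and 197 CPM, and to 59.6 CPM in emu lateral plate 1 beside 22.7 and 40.7 CPM. Their part in the FGF10 level was not tested.

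Among the ligands closest to FGF10, FGF7, which uses the same receptor isoform, was higher in the emu somatopleure than in the splanchnopleure, a pair between which FGF10 did not pass. It stood at 18.1, 8.60 and 24.9 CPM in emu somatopleure 13, 53 and 5 and at 1.80 and 1.55 CPM in the splanchnopleure. The log2 fold change was 3.34 (SE 0.49, edgeR adjusted p = 0.00509), and it passed with each library left out. Against the emu lateral plate, at 8.74 to 11.02 CPM, FGF7 fell in the splanchnopleure by 2.50 (SE 0.48, adjusted p = 0.0103, and 0.0771 without splanchnopleure 6). In the somatopleure it stood 0.85 above the lateral plate (SE 0.36, adjusted p = 0.463). In the chick FGF7 was scarce, at 2.67 to 5.74 CPM in the somatopleure and at most 1.20 CPM in the splanchnopleure (log2 fold change 2.51, SE 0.74, adjusted p = 0.0365). That chick call was lost without lateral plate 32, any of the 3 somatopleure libraries, or splanchnopleure 61 or 64, at adjusted p from 0.0531 to 0.103. FGF3 had 38 counts in the chick lateral plate and 0 in the chick somatopleure, and 35, 12 and 0 counts in the emu lateral plate, somatopleure and splanchnopleure.

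The receptors of FGF10 were measured for 4 of the 5 listed. FGFR2, whose epithelial isoform binds FGF10, rose in the splanchnopleure over the lateral plate in the chick by 0.94 (SE 0.19, edgeR adjusted p = 0.00805) and in the emu by 1.23 (adjusted p = 0.00684), beside 9.07% of chick and 11.4% of emu genes that rose. The counts do not separate its isoforms. FGFRL1, a receptor without a kinase domain, fell in the chick somatopleure by 4.47 on the log2 scale against the splanchnopleure (SE 0.25, adjusted p = 2.49e-06), to 4.46 to 10.4 CPM from 130 to 168 CPM. In the emu the same comparison gave -1.65 (adjusted p = 0.0209), a call lost without somatopleure 13 (0.0675) or splanchnopleure 6 (0.148). FGFR1 and FGFR3 did not pass between the somatopleure and either other tissue in either species.

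Genes known to act upstream of Fgf10 moved with it in the chick somatopleure in part. Against the splanchnopleure, 8 of 15 tested regulators rose and 3 fell, beside 19.1% of genes called and 11.8% that fell, and their median log2 fold change was 1.42 where that of the genes tested was near 0. TBX5 rose by 3.69 (SE 0.55, edgeR adjusted p = 9.93e-04), and WNT2B, the limb-field WNT, rose by 3.71 (SE 0.56, adjusted p = 0.00104). TWIST1, a transcription factor needed for limb bud growth in the mouse, rose by 4.28 (SE 0.48, adjusted p = 1.53e-04). PITX1, a hindlimb regulator, fell by 4.71 (SE 0.28, adjusted p = 3.47e-06). ISL1, which lies upstream of Fgf10 in the mouse hindlimb field and marks the second heart field, had 1 count in the 3 chick somatopleure libraries and 107 in the splanchnopleure.

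Against the lateral plate, 6 of these 15 regulators rose in the chick somatopleure and 4 fell, beside 9.8% of genes called and 6.28% that fell. TBX5 rose by 6.25 (SE 0.69, edgeR adjusted p = 2.95e-04) and WNT2B by 3.55 (SE 0.56, adjusted p = 0.00246). SALL4, a zinc-finger factor that acts with TBX5 on Fgf10 in the mouse, fell by 0.67 (adjusted p = 0.0123), a call lost without lateral plate 30 (adjusted p = 0.0630). In the emu somatopleure none of the 15 passed against the lateral plate, as no gene did. Emu TBX5 was 3.12 above the lateral plate on the log2 scale (SE 1.29, adjusted p = 0.445) and WNT2B -0.10 (SE 0.34). The WNT2B response differed between the species by 3.63 (SE 0.67, adjusted p = 0.0107), and the TBX5 response by 3.11 with an adjusted p of 0.353.

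Against the emu splanchnopleure, 3 of 15 regulators rose in the somatopleure and none fell, beside 13.4% of genes called, with 5.05% higher and 8.34% lower. LEF1, a WNT effector, PRRX1, a limb mesenchyme factor, and SALL1 were those called. The count depended on single libraries, at 0 without somatopleure 13 or splanchnopleure 6, at 1 without somatopleure 53 or lateral plate 8, and at 2 higher and 1 lower without somatopleure 5. FGF10 itself did not pass there, and its direction cannot be given.

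Genes that FGF and ERK signalling switches on were higher in the somatopleure than in the splanchnopleure in both species for a few members. In the chick 4 of 12 tested targets rose (DUSP6, DUSP4, ETV1 and ETV4) and none fell, beside 7.34% of genes that rose and 11.8% that fell, with a median of 0.38 where that of the genes tested was near 0. The ETV4 call, at 1.19 (adjusted p = 0.0309 in edgeR), was lost without somatopleure 63 or splanchnopleure 50 or 64. DUSP6, a phosphatase that dampens ERK, rose by 1.39 in the chick (SE 0.11, edgeR adjusted p = 1.63e-05). Between the emu layers no direction can be given for FGF10. There DUSP6 rose by 1.73 (SE 0.29, adjusted p = 0.00789), from 29.7 and 42.6 CPM in the splanchnopleure to 91.3 to 167 CPM. That emu call was lost without splanchnopleure 6, with an adjusted p of 0.0844. In the emu 2 of 12 targets rose (DUSP6 and ETV1) and 1 fell (SPRY2, by 1.69), beside 5.05% of genes that rose and 8.34% that fell. Without splanchnopleure 6 none passed, without somatopleure 13 there was 1 higher, without the pool 3 were higher and none lower, and without lateral plate 1 there were 2 lower.

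Against the lateral plate the chick targets fell in the splanchnopleure, where FGF10 fell too. There 8 of 12 were lower and none higher, with a median of -0.95, beside 7.78% of genes that fell. The count was 6 lower and 1 higher without splanchnopleure 61. From lateral plate to somatopleure, where FGF10 did not pass, 1 of 12 targets rose (FLRT3) and 3 fell (SPRY1, SPRY2 and IL17RD), and 6 fell without somatopleure 63, beside 3.52% of genes that rose and 6.28% that fell. SPRY2 fell by 1.78 (SE 0.33, edgeR adjusted p = 0.00600), and DUSP6 stood at 121 to 128 CPM in the lateral plate and at 122 to 134 CPM in the somatopleure. In the emu splanchnopleure, where FGF10 did not pass, 4 of 12 targets were lower than in the lateral plate (DUSP6, ETV1, SPRY1 and ETV5). None was higher, and the median was -1.05, beside 9.21% of genes that fell. The emu count was 2 lower and 1 higher without lateral plate 1, and 2 lower without lateral plate 8. It also moved without splanchnopleure 6.

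The ectodermal genes on the list named responders were scarce and uneven, and whether they respond to FGF10 was not tested. FGF8 had 115 counts in the chick lateral plate, 4 in the somatopleure and 0 in the splanchnopleure, and 29, 13 and 0 counts in the emu tissues in the same order. In the chick, none of the 7 tested responders passed between somatopleure and splanchnopleure, beside 7.34% of genes that rose and 11.8% that fell. Without splanchnopleure 61, 5 were higher. Against the lateral plate 2 of 7 rose in the chick somatopleure (SP8 and WNT7A) and 1 fell (FGF8), beside 3.52% of genes that rose and 6.28% that fell. At most 1 rose with any lateral plate or somatopleure library left out. None fell without lateral plate 30 or any of the somatopleure libraries. The 7 responders summed to 65.8 CPM in splanchnopleure 61 beside 3.76 and 8.99 CPM in 50 and 64. That library also had the most FGF10 of its tissue, and its 7 surface ectoderm markers summed to 395 CPM beside 163 and 189 CPM. In the emu somatopleure 3 of 5 tested responders rose against the splanchnopleure (DLX5, TP63 and WNT7A), beside 5.05% of genes that rose. These calls depended on single libraries, splanchnopleure 6 and the pool among them. The WNT7A call was also lost without lateral plate 1, 8 or 23 or somatopleure 13, at edgeR adjusted p from 0.0511 to 0.0592. DLX5 and TP63 are also among the surface ectoderm markers, and the part of ectoderm content in their rise was not tested.

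Markers of other cell types also differed between the layers, in the emu as in the chick. The 15 endothelial markers summed to 313 to 492 CPM in the chick somatopleure and to 1200 to 1747 CPM in the splanchnopleure, and 12 of 15 fell, beside 11.8% of genes. In the emu they summed to 342 to 733 CPM and to 1304 and 2473 CPM, and 13 of 15 fell, beside 8.34% of genes, while FGF10 did not pass between the emu layers. The 6 endoderm markers summed to 5.99 to 19.5 CPM in the chick somatopleure and to 59.7 to 73.2 CPM in the splanchnopleure, with 1 to 3 of them at 0 in each library. The 7 surface ectoderm markers, none at 0, overlapped between the chick layers at 253 to 403 and 163 to 395 CPM. The somite sum was 9.48 to 14.2 and 26.7 to 34.6 CPM in these layers. The 5 neural markers summed to 11.2 to 31.95 and 0.300 to 10.9 CPM, the nephric marker GATA3 stood at 4.202 to 26.96 and 2.704 to 7.196 CPM, and the red cell marker KLF1 at 1.02 to 23.8 and 4.29 to 5.32 CPM. In the emu the surface ectoderm sums did not overlap, at 333 to 594 CPM in the somatopleure and 295 and 302 CPM in the splanchnopleure. Of those 7 markers 4 rose (DLX5, ESRP1, WNT6 and TP63), beside 5.05% of genes that rose. The DLX5 and TP63 calls did not hold with every library left out. The emu endoderm sums were 16.0 to 42.1 and 92.4 to 104 CPM, and the somite sums overlapped at 9.60 to 26.9 and 20.4 to 30.8 CPM. The emu neural sums did not overlap, at 8.88 to 31.8 and 1.29 to 1.93 CPM. Nor did GATA3, at 11.2 to 28.1 and 1.29 to 6.45 CPM, or KLF1, at 0.502 to 1.97 and 4.25 to 7.63 CPM. GATA3 and the neural marker TFAP2B were called higher, and KLF1 was not called. GATA3 was 1 of 6 listed nephric markers and KLF1 1 of 10 listed red cell markers. The part of these cells in the FGF10 difference was not tested.

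Other known sites of FGF10 lie in the heart field and foregut mesenchyme, and genes of those sites were lower in the chick layer where FGF10 was high. Of 5 tested, 3 fell in the chick somatopleure against the splanchnopleure (TCF21, GATA4 and ISL1) and none rose, beside 11.8% of genes that fell. TCF21 fell by 5.23 (SE 0.52, edgeR adjusted p = 8.22e-05), and GATA4, a heart and gut factor, by 1.77 (adjusted p = 0.00655). Heparan sulfate carries FGFs to their receptors, and of its 15 tested genes 2 rose (SDC1 and GPC1) and 3 fell (GPC4, SDC4 and SULF2), or 4 and 1 without splanchnopleure 64, beside 7.34% of genes that rose and 11.8% that fell. GPC1, a cell-surface core protein, rose by 1.02 (adjusted p = 0.00368), and SULF2, an enzyme that removes sulfate from the chains, fell by 1.44 (adjusted p = 8.63e-04).

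**Figure D5:**
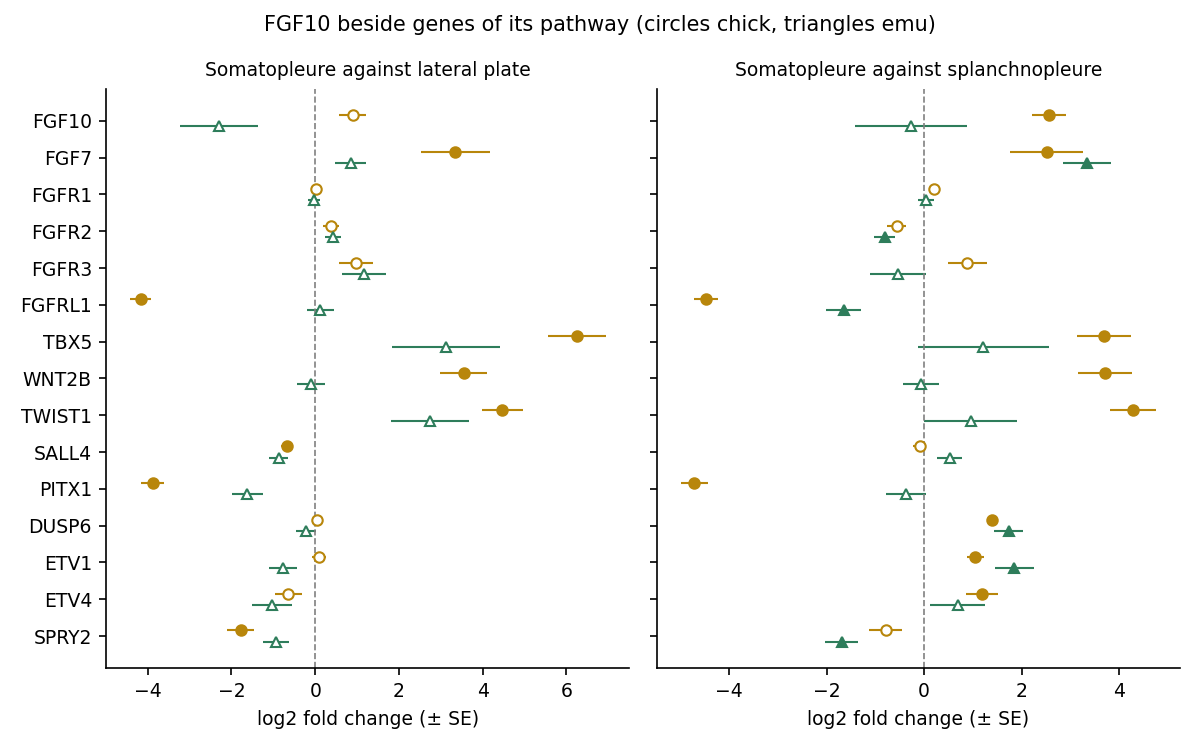
Log2 fold change ± SE of FGF10 and related genes of its pathway, for somatopleure against lateral plate on the left and against splanchnopleure on the right; circles are chick, triangles emu, filled where the adjusted p is under 0.05. Against the lateral plate no emu point is filled, and against the splanchnopleure chick FGF10 lies at 2.56 and emu FGF10 at -0.27.

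The genes whose pattern was most like that of FGF10 were found by Pearson's r of log2 CPM over the 9 chick and the 8 emu libraries, among 9111 genes. Genes were ranked by the lower of their r in the 2 species, and HAPLN1, a link protein of the hyaluronan matrix, came first with r = 0.912 in the chick and 0.922 in the emu. Next by that rank were FAM3C, AHCTF1, XRN1, FAM171B, PLCL2, DOCK9 and RPGRIP1L, whose r ran from 0.773 to 0.881 in the chick and from 0.785 to 0.930 in the emu. The libraries of a tissue share their place in this measure, and the median r over the candidates was 0.025 in the chick and 0.0088 in the emu. In the emu, lateral plate 1 held 67 FGF10 counts and the other libraries 2 to 14. FAM3C, AHCTF1, FAM171B, PLCL2 and DOCK9 were also highest in that library. FAM3C stood there at 146 CPM beside 49.1 to 82.3 CPM, and DOCK9 at 55.5 beside 34.8 to 52.0 CPM. How far the emu r rests on lateral plate 1 was not tested. By Spearman's rho 4 of these 8 genes were again among the top 8.

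HAPLN1 was chosen for its likeness to FGF10 over these same libraries, so its levels are a description with no test. In the chick it stood at 101, 128 and 97.3 CPM in somatopleure 15, 60 and 63 and at 30.4, 32.8 and 38.3 CPM in splanchnopleure 50, 61 and 64. In the emu it stood at 142 CPM in lateral plate 1, which had the most FGF10, and at 63.9 to 97.9 CPM in the other libraries.

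CRABP1, a retinoic acid binding protein, was most like FGF10 in the chick alone, with r = 0.969, and ran the other way in the emu, with r = -0.786. It stood at 16.1 to 26.3 CPM in the chick somatopleure and at 1.35 to 3.83 CPM in the splanchnopleure. In the emu the splanchnopleure was highest, at 172 and 348 CPM, and lateral plate 1 lowest, at 19.3 CPM. SREBF1, a regulator of sterol synthesis, and TCEA1, a transcription elongation factor, came next in the chick with r = 0.968 and 0.960. KPNA5, an importin, RPGRIP1L, a cilium protein, and RAB11FIP2, a trafficking protein, led in the emu with r = 0.932, 0.930 and 0.928. For KPNA5 r in the chick was -0.401.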

How the data were processed

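RNA-seq libraries were made from 200 ng of total RNA with a stranded kit and 15 cycles of amplification, per the labels' protocols. The authors deposited, per species, 1 table of raw read counts per gene; STAR, featureCounts, DESeq and galGal4 are named in the submitters' processing notes without roles, and the sources used here do not name the emu's genome. The 12338 symbols of both early tables were used as deposited, and the other 23 samples (stage HH18) are not analysed here.

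Counts were fitted per species with tissue as the factor (R 4.3.3, edgeR 4.0.16, limma 3.58.1, filterByExpr with a minimum count of 10 and total of 15, TMM scaling, glmQLFit and glmQLFTest, two-sided), and over both species with species by tissue groups. P-values were adjusted over the genes tested. DESeq2 1.42.0 and the alternatives in the closing section were run too, and the fits were tested on simulated data. The emu simulation changed only genes with higher mean counts than emu FGF10 and gave every gene a smaller spread. It therefore does not bear on the emu FGF10 fit. FGF10, the 8 pathway lists, the 7 marker lists and the tests were chosen with earlier results of these data known. Genes named were FGF10, its closest ligands and receptors, members of the lists that passed between somatopleure and splanchnopleure (at most 4 a list, largest change first), 8 fixed regulators and targets, and the genes of most like pattern (Pearson's r of log2 CPM with a prior count of 2, mean log2 CPM of at least 1); others named in a count of 8 or fewer were chosen after their values were seen. Libraries of a tissue differed by more than sampling noise, since the chi-square of their counts was at least 4.04 times its degrees of freedom.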

Additional observations from a re-analysis of the deposited data

Results flagged for a closer look

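Genes named beside FGF10 whose tissue response differed between the species are given here as the chick log2 fold change minus that of the emu, by the edgeR interaction test with Benjamini-Hochberg adjustment over 9736 genes. FGF10 itself did not pass in any of the 3. HAPLN1, RPGRIP1L and CRABP1 were chosen for their likeness to FGF10 over the same libraries, so their values are given as a description, without p.

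For somatopleure against lateral plate the value was -4.30 for FGFRL1 (SE 0.46, adjusted p = 7.49e-04), 3.63 for WNT2B (SE 0.67, adjusted p = 0.0107), 0.998 for RPGRIP1L and -2.27 for PITX1 (SE 0.51, adjusted p = 0.0265). The PITX1 call was lost without chick lateral plate 30, chick somatopleure 15 or 60, or emu somatopleure 13.

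For somatopleure against splanchnopleure the value was -4.36 for PITX1 (adjusted p = 5.05e-04), 4.44 for CRABP1, -2.56 for SULF2 (adjusted p = 0.00242), -2.84 for FGFRL1 (adjusted p = 0.00356), 1.66 for HAPLN1, -4.06 for TCF21 (adjusted p = 0.00645), 3.75 for WNT2B (adjusted p = 0.00650) and 0.84 for RPGRIP1L. The fitted value for ISL1 was -6.71, which depends on the prior count, since the chick somatopleure held 1 count. PITX1, SULF2, FGFRL1, TCF21 and WNT2B passed with each of the 17 libraries left out.

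For splanchnopleure against lateral plate the value was -4.76 for CRABP1 and -1.06 for HAPLN1. It was 2.68 for SULF2 (adjusted p = 0.00208), 5.04 for ISL1 (adjusted p = 0.00275) and 2.09 for PITX1 (adjusted p = 0.0127), each called with any of the 17 libraries left out. It was 1.67 for ETV1 (adjusted p = 0.0254), called in 12 of those 17 fits and lost without chick lateral plate 30 or 32, chick splanchnopleure 64, emu lateral plate 1 or emu splanchnopleure 6. It was -1.74 for SPRY2 (adjusted p = 0.0407), called in 8, and -1.46 for FGFRL1 (adjusted p = 0.0464), called in 7. Both of these were lost without emu splanchnopleure 6 or any of the 3 chick splanchnopleure libraries, among others.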

How the results depend on the processing

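Each FGF10 value was recomputed with DESeq2 size factors, upper-quartile or total count scaling, no count filter, the tissues compared alone, DESeq2, each library left out, and without both emu libraries whose stage label departs. Of these values 154 kept direction and side of the threshold. The chick excess from lateral plate to somatopleure passed in DESeq2 (3.25). It was 2.59 and did not pass without both departing emu libraries. Its edgeR adjusted p reached 0.318 with a library left out and 0.204 over the other alternatives. The excess for splanchnopleure against lateral plate was -0.98 without both departing emu libraries. The cause of these changes was not tested.

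With 1 library left out, chick FGF10 lay between 0.65 and 1.39 for somatopleure against lateral plate, -1.94 and -1.18 for splanchnopleure against lateral plate, and 2.40 and 2.83 between the layers. The emu ranges were -3.06 to -0.95, -3.66 to -0.68 and -1.03 to 1.37. The species differences ranged from 1.83 to 3.95, -0.98 to 2.01 and 1.18 to 3.57. Where 1 library remained in an arm, it was assumed to vary like the others. Of the values recomputed for other named genes, 146 lost the call, 1357 kept direction and side of the threshold, called or not, and 0 reversed. The count of genes called moved by over 1.5 times in each comparison. With 1 library left out, the lowest counts for the chick were 581 of 987 for somatopleure against lateral plate (without lateral plate 32), 816 of 1697 for splanchnopleure against lateral plate (without lateral plate 30) and 1192 of 1927 between the layers (without splanchnopleure 64). Without emu splanchnopleure 6 the emu counts were 353 beside 2196 and 263 beside 1424, and the species differences 241 beside 932 and 213 beside 532. Without chick somatopleure 63 the species difference from lateral plate to somatopleure had 146 beside 288. DESeq2 called 585 and 842 species differences where edgeR called 288 and 532, and 140 genes for emu somatopleure against lateral plate. With the layers fitted alone, 562 emu genes and 253 species differences passed. Without both departing emu libraries the emu counts were 654 and 453, and the species differences from lateral plate 97 and 575. The chick to emu ratios with a library left out, an alternative chosen after seeing the data, ranged from 2.34 to 8.26 in the lateral plate, 23.2 to 51.7 in the somatopleure and 2.49 to 13.7 in the splanchnopleure.

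No paired analysis was possible because the early tissues share no replicate numbers. Emu FGF10 rests on 2 to 14 counts outside lateral plate 1, which limits what a difference there can show.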
